A study of Mus musculus with 9 samples.

Results

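Oxidative phosphorylation is carried out by 5 protein complexes of the inner mitochondrial membrane, and the nuclear genes for their subunits were followed here in the fetal midbrain of mice with a conditional deletion of Gpr161. The genes were selected by symbol: names that begin with Nduf followed by a subunit letter and number, Sdha to Sdhd, and names that begin with Uqcr, Cox4 to Cox8 or Atp5. This set was chosen with earlier results of these data known. Of 88 rows with such a name, 1 pseudogene row was left out, and 2 genes listed in duplicate rows were each counted once. This left 85 genes of the 21356 gene names in the table. They were 38 genes of complex I, 4 of complex II, 8 of complex III, 18 of complex IV and 17 of complex V, and lay on 19 chromosomes. The subunits encoded by mitochondrial DNA were not analysed here.

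Poly-A selected RNA was sequenced from midbrain tissue of C57BL/6 mice at E13.5, in 3 libraries for each of 3 genotypes. The floxed control carried 2 floxed Gpr161 alleles and no Cre (Gpr161 f/f). The Cre control carried 1 floxed allele and the Wnt1-Cre transgene (Gpr161 f/+;Wnt1-Cre), and cKO carried 2 floxed alleles and Wnt1-Cre (Gpr161 f/f;Wnt1-Cre, titled Gpt161f/f;Wnt1-Cre in the labels). Wnt1-Cre is active in the dorsal midbrain and the neural crest, so other cells of the dissected tissue keep an intact Gpr161. All 3 genotypes carry a floxed allele, so no group is wild type at the locus, and the controls differ from each other in Cre and in the second floxed allele together. Nothing in the labels says whether a library is 1 fetus or a pool, so the p-values measure only the spread between these libraries. Bulk tissue cannot tell fewer cells of a kind from less RNA per cell.

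The deposited values are log2 expression values normalized between libraries, without read counts, so sequencing depth is unknown. The transformation behind them is not given in the sources used here, and its effect on the fold changes of weakly expressed genes was not measured. A gene was tested if it reached 1 cpm, as computed from the linear values, in 3 or more libraries, which 14029 genes did. The targeted gene Gpr161 had 11.77 ± 0.030 in floxed controls, 11.88 ± 0.096 in Cre controls and 11.88 ± 0.12 in the libraries labelled cKO (log2 value, mean ± SD, n = 3). It was thus no lower in the libraries labelled cKO, and the table does not separate the floxed part of the gene from the rest. The midbrain markers En1, En2, Otx2, Pax7, Lmx1a and Pax3 were present in every library, with a summed level of 13.51 to 13.85 on the log2 scale.

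Complex I takes electrons from NADH and complex II takes them from succinate. Complex III passes them to cytochrome c, and complex IV hands them to oxygen, while complexes I, III and IV pump protons across the membrane. Complex V, the ATP synthase, lets the protons flow back and makes ATP. In the developing brain, neural progenitors are known to lean on glycolysis and to increase their respiration as they become neurons.

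Of the 85 genes, 79 passed the filter on low values. The 6 that did not were Ndufa11b, Cox6a2, Cox7a1, Cox7b2, Cox8b and Cox8c, of which 4 lay below 0 on the log2 scale in every library. Per kilobase of transcript, the median level over the tested members with a known transcript was 11.66 on the log2 scale, against 8.10 over all genes tested with one. The median per kilobase was 11.07 for complex I, 10.87 for complex II, 11.78 for complex III, 12.22 for complex IV and 12.32 for complex V. The highest member was Atp5b, the catalytic subunit of ATP synthase, at 13.79 per kilobase, and the lowest tested member was Cox4i2, an alternative isoform of complex IV subunit 4, at 5.59. These were thus among the strongly expressed genes of the tissue, apart from a few isoforms.

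The genes moved little between genotypes. Against the floxed control, the median log2 fold change of the 79 tested members in cKO was 0.072, with 71 members higher and 8 lower, while the median over all genes tested was 0.011. Over the Cre control the members' median was 0.035, with 59 higher and 20 lower, and the median of all genes 0.012. The Cre control itself lay above the floxed control by a median of 0.037 over the members and -0.001 over all genes. The 3 comparisons share libraries, so they are not independent of each other. No member changed by more than 1.5-fold with an adjusted p under 0.05 in any comparison.

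**Figure D1:**
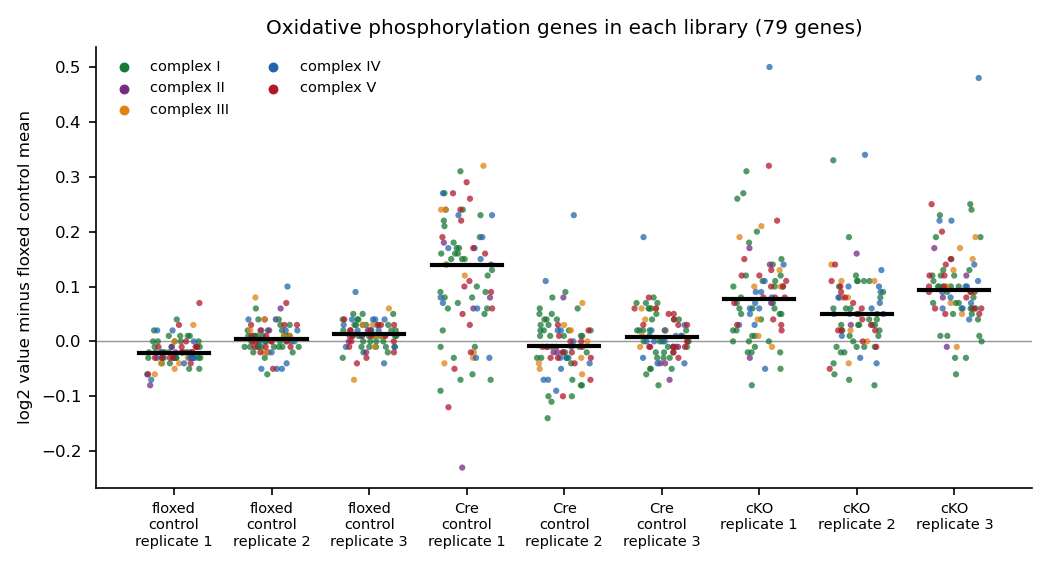
Each point is 1 of the 79 tested oxidative phosphorylation genes in 1 library, as its log2 value minus its floxed control mean (vertical axis), coloured by complex, and the black bars are the medians over the genes. The medians of the 3 cKO libraries lie between 0.050 and 0.094, and Cre control replicate 1 stands above them at 0.14, apart from the other 2 Cre control libraries at -0.0093 and 0.0081.

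Over all 9 libraries, limma was run with Benjamini-Hochberg adjustment over all genes tested. It called 8 of the 79 members (10.1%) higher in cKO than in floxed controls, beside 19.5% of all genes tested. None was called lower, where 18.8% of all genes were. At an unadjusted p under 0.05 none was lower either. Of the 14029 genes tested, 6743 passed that limit in either direction, 3514 of them higher. Against the Cre control 2 members (2.53%) were called higher beside 4.86% of all genes, and 0 were called lower beside 4.85%. None was lower than in the Cre control at an unadjusted p under 0.05, where 4109 genes passed in either direction, 2157 of them higher. The share of members called higher was therefore under that of all genes in both comparisons. For the Cre control over the floxed control limma called no member in either direction, beside 0.0499% of all genes higher and 0.00713% lower. In that comparison, 5 members were higher at an unadjusted p under 0.05, with 8.77% of all genes, and 1 was lower, with 8.70%.

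The counts of members called higher in cKO moved most with a single library. Cre control replicate 1 lay above the floxed control mean by a median of 0.14 over the members, and at -0.010 over all genes tested. It was the highest of the 3 Cre control libraries at 61 of 79 members, against 36.7% of all genes tested. It lay above the other 5 control libraries at 60 members, against 3786 of 14029 genes tested. At 42 of the 79 members it was also above every cKO library, for which no share over all genes was computed. The median SD over the members was 0.085 in the Cre control, 0.028 in the floxed control and 0.035 in cKO. Over all genes tested the median SD was 0.079, 0.054 and 0.055.

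Without Cre control replicate 1, 33 of 79 members (41.8%) were called higher in cKO than in floxed controls, with 24.1% of all genes, and these held the 8 called with it. The fold changes in that comparison did not depend on the library, and their median stayed at 0.072, since the library entered only through the shared estimate of the spread. With only the 6 libraries of the comparison in the fit, 27 members (34.2%) were called, beside 22.8% of all genes. Against the Cre control, 15 members (19.0%) were called higher without this library, beside 10.9% of all genes, and the median went from 0.035 to 0.073. The median of the Cre control against the floxed control fell from 0.037 to -0.00020. The share of members called was thus under the background with this library and above it without it.

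Leaving out some of the other libraries lowered the counts of members and of all genes together. Against the floxed control, 4 members were called when floxed control replicate 1 was left out (13.8% of all genes), 5 without floxed control replicate 3 (13.8%), 5 without cKO replicate 1 (13.1%) and 4 without cKO replicate 3 (15.8%). Against the Cre control, 0 were called without Cre control replicate 3 (1.03% of all genes) or without cKO replicate 1 (0.998%). In that comparison 1 was called without floxed control replicate 3 (2.70%), Cre control replicate 2 (2.35%) or cKO replicate 3 (2.59%). In each of these settings the share of members stayed under that of all genes.

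The deviation of Cre control replicate 1 ran with transcript length. Over the 77 tested members with a transcript in GENCODE M21, its deviation from the floxed control mean had a Pearson r of -0.57 and a Spearman rho of -0.48 with length. In the other 8 libraries r lay between -0.19 and 0.07. These are descriptions over genes of the same libraries, with no test. The members are short, with a median transcript of 745 bases against 2963 over all genes tested, and 51 of the tested members lie under 1 kb. In Cre control replicate 1 the 272 tested genes with a transcript under 700 bases lay above the floxed control mean by a median of 0.17, equal to that of the 34 members of that length. The 4367 genes of 4000 bases and over lay at -0.076. The 3 cKO libraries sloped in the same direction over all genes, from 0.090 to 0.12 under 700 bases to between -0.068 and -0.035 at 4000 bases and over. The 800 tested genes under 1 kb had a median of 0.091 in cKO against the floxed control, beside 0.080 for the 51 short members. The 26 longer members had a median of 0.064. Over the Cre control the order was the other way, with 0.028 for the short members and 0.070 for the longer ones, and 0.046 for all genes under 1 kb.

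**Figure D2:**
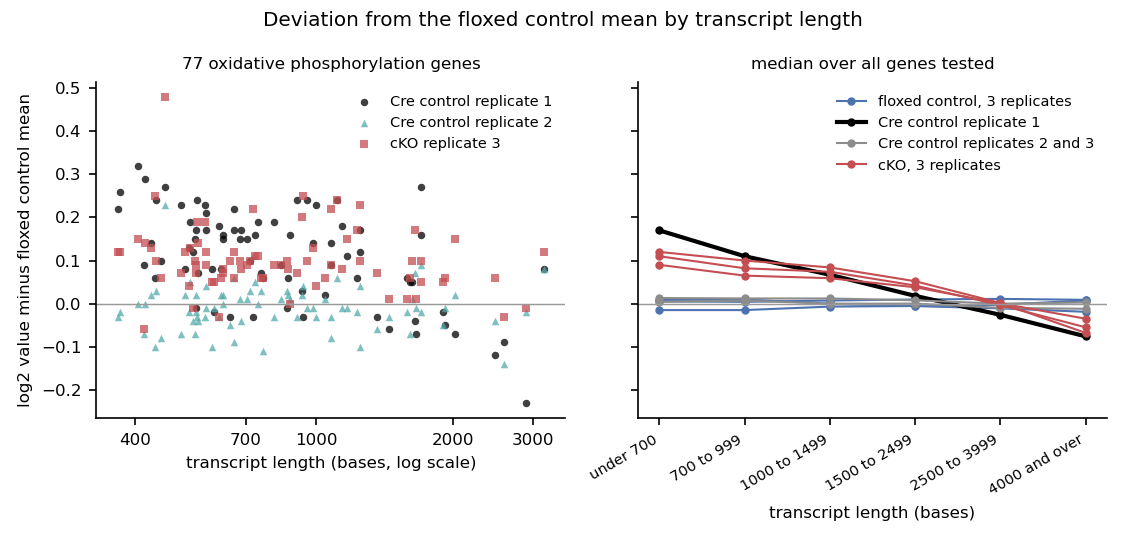
Left, deviation of 77 oxidative phosphorylation genes from the floxed control mean (log2, vertical axis) against transcript length (bases, log axis) in 3 libraries, and right, the median deviation over all genes tested in 6 length classes for each of the 9 libraries. Cre control replicate 1 falls from 0.17 under 700 bases to -0.076 at 4000 bases and over, and the cKO libraries also fall with length.

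When each library was corrected for transcript length and GC content, the median of the members in cKO against the floxed control was -0.011 in place of 0.072. Length and GC content explained 14.9% of the variance of Cre control replicate 1 around the gene means and 1.90% to 9.64% in the other libraries. With the correction 5 of 77 members were called higher (19.7% of all genes) and 3 lower (19.2% of all genes). The 5 were Cox6b2, Ndufa12, Ndufa4l2, Atp5d and Sdhc. The 3 lower ones were Ndufa1, Ndufa4 and Ndufa5, all of complex I by their symbols, with log2 fold changes of -0.17, -0.11 and -0.12. Most members lay above 0 before this correction, and their median was near 0 with it. Cox6b2, Ndufa4l2, Atp5d and Ndufa12 were called over the floxed control in every alternative fit that gave them a value. The part of transcript length in the differences between genotypes was not tested beyond this correction.

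Without any fit, every cKO library lay above every control library at 10 of the 79 members (12.7%), beside 14.7% of all genes tested. They were Ndufa10 and Ndufa4l2 of complex I, Sdhc and Sdhd of complex II, Uqcrc1 of complex III, Cox5b, Cox6b2 and Cox8a of complex IV, and Atp5a1 and Atp5d of complex V. Every cKO library lay below every control at 0 members, beside 11.5% of all genes.

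**Figure D3:**
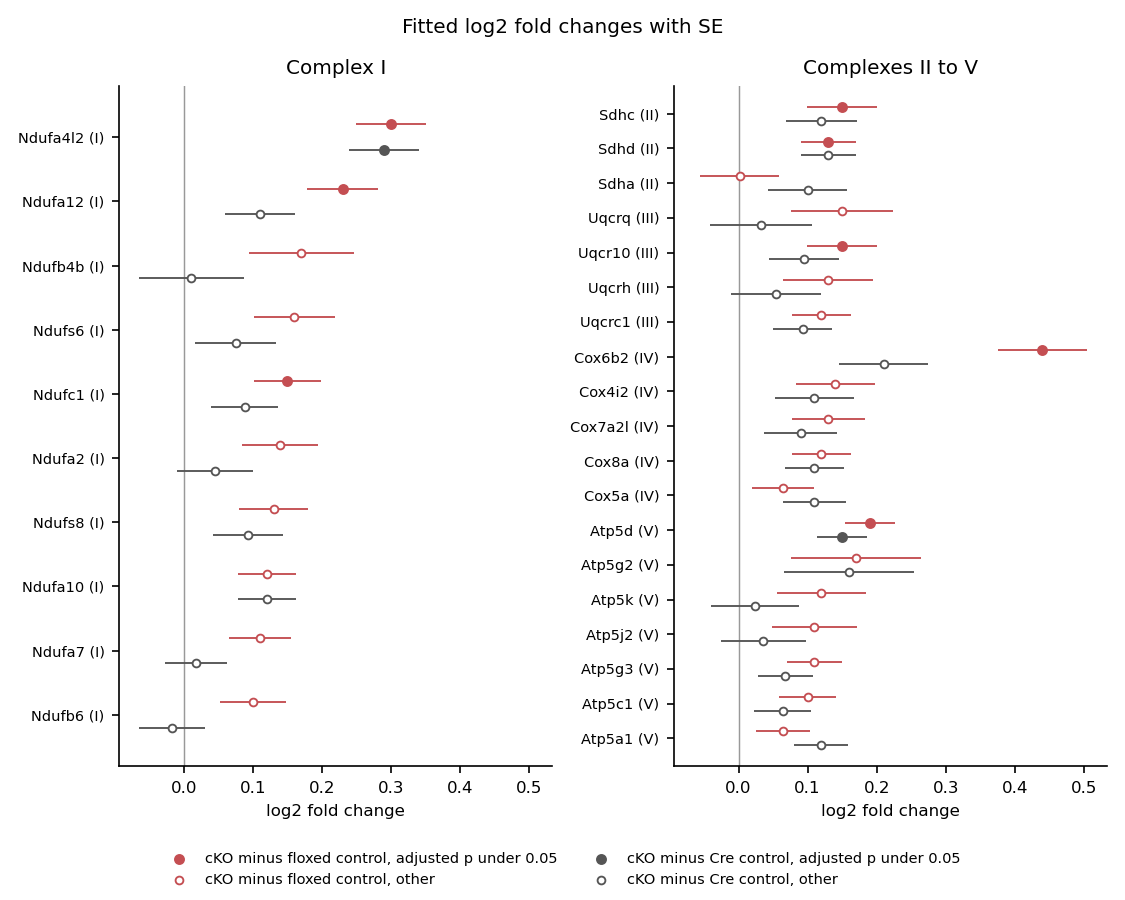
Fitted log2 fold changes (horizontal axis) with SE for the 29 of 79 tested oxidative phosphorylation genes with a fold change of 0.1 or more in size in either comparison, cKO minus floxed control in red and cKO minus Cre control in grey, with filled points for an adjusted p under 0.05. The filled points are 8 in red, led by Cox6b2 at 0.44, and 2 in grey, Ndufa4l2 at 0.29 and Atp5d at 0.15.

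Promoter windows of RefSeq (GRCm38.p6, 250 bases before to 50 bases after a transcription start) were found for 68 of the 85 members. Nuclear genes of oxidative phosphorylation are known targets of the factors NRF1, GABP (of the ETS family) and YY1. Searched on both strands, the letters GCGCATGCG (NRF1) were in a window of 8 of the 65 tested members found (12.3%), of 3.86% of 11116 genes tested and in 1.75% of all 32851 windows. The letters CCGGAAG (ETS) were in windows of 17 members (26.2%), of 18.5% of the genes tested and in 8.86% of all windows. The letters AAGATGGCG (YY1) were in windows of 7 members (10.8%), of 3.25% of the genes tested and in 1.40% of all windows. The end of the ETS letters can overlap the start of the YY1 letters. A match is a run of letters and was not tested as a site.

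The windows shown are those of Cox6b2, the member with the largest fold change, of its isoform Cox6b1, which was not called, and of Atp5d, Sdhd and Ndufc1, called members of complexes V, II and I. Capitals mark a match to the letters above. Cox6b1 and Sdhd hold the reverse complement of the ETS letters, Ndufc1 holds the YY1 letters just after its start, and Cox6b2 and Atp5d hold none. For Atp5d the 2 windows listed start 40 bases apart, both inside the GENCODE gene and without a match, and the first is shown. The windows lie at chr7:4753045-4753344 on the minus strand (Cox6b2), chr7:30626065-30626364 on the minus strand (Cox6b1), chr10:80142025-80142324 on the plus strand (Atp5d), chr9:50603800-50604099 on the minus strand (Sdhd) and chr3:51408906-51409205 on the minus strand (Ndufc1).
Cox6b2: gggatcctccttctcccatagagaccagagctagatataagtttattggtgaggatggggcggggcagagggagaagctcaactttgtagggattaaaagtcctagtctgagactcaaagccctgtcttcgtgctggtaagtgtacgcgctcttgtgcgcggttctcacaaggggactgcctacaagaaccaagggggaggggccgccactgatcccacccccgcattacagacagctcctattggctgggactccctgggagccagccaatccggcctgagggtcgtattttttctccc
Cox6b1: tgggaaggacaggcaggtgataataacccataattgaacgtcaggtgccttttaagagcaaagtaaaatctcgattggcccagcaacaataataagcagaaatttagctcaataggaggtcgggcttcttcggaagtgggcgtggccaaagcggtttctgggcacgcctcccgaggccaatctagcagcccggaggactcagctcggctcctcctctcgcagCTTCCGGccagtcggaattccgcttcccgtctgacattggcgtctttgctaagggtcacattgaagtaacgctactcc
Atp5d: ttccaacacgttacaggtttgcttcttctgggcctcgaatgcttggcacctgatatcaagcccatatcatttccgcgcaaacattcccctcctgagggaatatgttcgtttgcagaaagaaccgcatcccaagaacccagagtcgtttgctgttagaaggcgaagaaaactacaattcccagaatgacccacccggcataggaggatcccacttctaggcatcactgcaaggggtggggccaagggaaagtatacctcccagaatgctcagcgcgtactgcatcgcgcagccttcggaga
Sdhd: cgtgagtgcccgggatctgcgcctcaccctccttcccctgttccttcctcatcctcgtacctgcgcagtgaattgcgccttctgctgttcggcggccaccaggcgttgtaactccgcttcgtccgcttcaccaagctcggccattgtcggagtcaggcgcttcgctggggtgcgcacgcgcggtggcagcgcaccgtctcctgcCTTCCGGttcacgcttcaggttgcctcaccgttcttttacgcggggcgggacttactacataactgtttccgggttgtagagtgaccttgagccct
Ndufc1: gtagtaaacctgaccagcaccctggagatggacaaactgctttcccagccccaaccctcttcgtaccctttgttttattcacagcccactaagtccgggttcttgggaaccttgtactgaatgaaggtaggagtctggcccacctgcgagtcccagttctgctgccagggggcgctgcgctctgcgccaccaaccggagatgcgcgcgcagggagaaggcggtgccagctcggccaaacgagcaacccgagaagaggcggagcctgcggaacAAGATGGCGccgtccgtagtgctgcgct

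In complex I, 3 of 37 tested genes were called higher in cKO than in floxed controls and 1 was called higher than in the Cre control. The median log2 fold changes were 0.060 and 0.031. Without Cre control replicate 1 these counts were 13 and 5, and the backgrounds for all complexes are those given above for the same fits. Ndufa4l2, a hypoxia-inducible relative of Ndufa4 (ENSMUSG00000040280, chr10:127514967-127517154), had log2 values of 6.50, 6.44 and 6.44 in floxed controls, 6.43, 6.50 and 6.48 in Cre controls and 6.77, 6.79 and 6.71 in cKO. Both control groups overlapped and all cKO libraries lay above them. The log2 fold change was 0.30 ± 0.051 (SE) over the floxed control (limma adjusted p = 0.00199) and 0.29 ± 0.051 over the Cre control (limma adjusted p = 0.0135). The second call was lost without Cre control replicate 3 or without cKO replicate 1 (adjusted p up to 0.0538).

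Ndufa4 itself, first named as a complex I subunit and since placed with complex IV, is by symbol counted in complex I. It was at 12.07, 12.10 and 12.10 in floxed controls, 12.27, 12.06 and 12.06 in Cre controls and 12.08, 12.05 and 12.06 in cKO, so that Cre control replicate 1 was the only library above 12.10. Its log2 fold change in cKO was -0.024 ± 0.054 (SE) against the floxed control (limma adjusted p = 0.753). Per kilobase, Ndufa4 exceeded Ndufa4l2 by 6.24 ± 0.053 in floxed controls, 6.27 ± 0.15 in Cre controls and 5.92 ± 0.047 in cKO (log2 difference, mean ± SD, n = 3). The rise was therefore in the minor form of this pair.

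Ndufa12, an accessory subunit of the peripheral arm of complex I (ENSMUSG00000020022, chr10:94198720-94221443), was at 11.07, 11.11 and 11.11 in floxed controls, 11.34, 11.16 and 11.16 in Cre controls and 11.36, 11.29 and 11.34 in cKO. The cKO libraries overlapped with Cre control replicate 1 and no other control. The log2 fold change was 0.23 ± 0.051 (SE) against the floxed control (limma adjusted p = 0.00606) and 0.11 ± 0.051 against the Cre control (limma adjusted p = 0.174, and 0.00909 without Cre control replicate 1). Ndufc1, a small accessory subunit of the membrane arm, was also called and is named after its values were seen. It was at 10.17, 10.21 and 10.27 in floxed controls, 10.34, 10.26 and 10.24 in Cre controls and 10.33, 10.34 and 10.45 in cKO, with a log2 fold change of 0.15 ± 0.049 (SE) against the floxed control (limma adjusted p = 0.0343). It lost its call in 7 of 17 alternatives, among them those without floxed control replicate 1, floxed control replicate 2, cKO replicate 2 or cKO replicate 3, and with the length and GC correction its log2 fold change was 0.086 (limma adjusted p = 0.167).

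By the parts of complex I, 0 of the 7 core subunits of the peripheral arm tested here, which carry electrons from NADH, were called in any comparison with all 9 libraries. Without Cre control replicate 1, Ndufs8 was called over both controls. Their log2 fold changes against the floxed control ran from -0.033 to 0.13 with a median of 0.065. Of 9 accessory subunits of the peripheral arm 1 was called (Ndufa12), and their median was 0.050. Of 18 accessory subunits of the membrane arm 1 was called (Ndufc1), and their median was 0.053. Ndufs1, a core subunit with iron-sulfur centres, was the 1 member with an unadjusted p under 0.05 on the lower side between Cre controls and floxed controls, with a log2 fold change of -0.10 (unadjusted p = 0.0201, adjusted p not under 0.05). Ndufb4b, a gene named as a copy of Ndufb4, had 0.17 in cKO against the floxed control (limma adjusted p = 0.110), and reads shared between such copies make its value uncertain.

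Complex II is encoded by nuclear genes alone. Its membrane anchors Sdhc and Sdhd were called higher in cKO than in floxed controls, and the catalytic subunits Sdha and Sdhb were not called. Sdhd was at 11.07, 11.11 and 11.09 in floxed controls, 11.15, 11.07 and 11.05 in Cre controls and 11.23, 11.17 and 11.26 in cKO. Sdhc was at 11.69, 11.83 and 11.79, then 11.85, 11.85 and 11.70, then 11.94, 11.93 and 11.89 in the same order of groups. For both genes all cKO libraries lay above all controls. The log2 fold changes were 0.13 ± 0.040 (SE) for Sdhd (limma adjusted p = 0.0262) and 0.15 ± 0.051 for Sdhc (limma adjusted p = 0.0428) over the floxed control. Relative to the Cre control they were 0.13 ± 0.040 and 0.12 ± 0.051 (limma adjusted p = 0.0709 and 0.157).

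The call of Sdhd against the floxed control was lost in 6 of 17 alternatives and that of Sdhc in 9, in each case without floxed control replicate 1 or 3 and without cKO replicate 1 or 3, and for Sdhc also without cKO replicate 2. With the length and GC correction the log2 fold change of Sdhd went from 0.13 to 0.050 (limma adjusted p = 0.233), while that of Sdhc was 0.15 (limma adjusted p = 0.0362). Sdha, the flavoprotein that oxidizes succinate, was at 12.48 ± 0.036 in floxed controls, 12.38 ± 0.12 in Cre controls and 12.48 ± 0.045 in cKO (log2 value, mean ± SD, n = 3). Its lowest library was Cre control replicate 1 at 12.25. Sdhb, the iron-sulfur subunit, was at 11.87 ± 0.016, 11.92 ± 0.11 and 11.93 ± 0.027, and its highest library was Cre control replicate 1 at 12.05. The transcript of Sdha has 2900 bases and that of Sdhb 1142.

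In complex III, 1 of 8 genes was called higher in cKO than in floxed controls and none was called against the Cre control. The medians were 0.11 and 0.044. With Cre control replicate 1 left out, 5 of 8 were called over the floxed control, Uqcrq, Uqcrh, Uqcr10, Uqcrc1 and Uqcr11, and 1 over the Cre control, Uqcrh. Uqcr10, a small subunit (ENSMUSG00000059534), was at 10.44, 10.45 and 10.34 in floxed controls, 10.55, 10.43 and 10.42 in Cre controls and 10.62, 10.52 and 10.54 in cKO. Its log2 fold change against the floxed control was 0.15 ± 0.051 (SE, limma adjusted p = 0.0392). The call was lost in 9 of 17 alternatives, among them those without floxed control replicate 1 or 3 and without any 1 of the 3 cKO libraries. With the length and GC correction the log2 fold change went from 0.15 to 0.041 (limma adjusted p = 0.463). The core protein Uqcrc1 missed the limit with all 9 libraries (0.12, limma adjusted p = 0.0501, and 0.0167 without Cre control replicate 1), although all its cKO libraries lay above all controls. The Rieske protein Uqcrfs1, which holds the iron-sulfur centre that gives electrons to cytochrome c1, had a log2 fold change of 0.048, and Uqcrc2 had 0.014.

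In complex IV, 1 of 13 tested genes was called higher in cKO than in floxed controls, and it was an alternative isoform. No gene of the complex was called over the Cre control. Without Cre control replicate 1 the counts were 6 and 5, and apart from Cox6b2 they were common forms or relatives of them. Cox6b2, a form of subunit 6B best known from testis (ENSMUSG00000051811, chr7:4751792-4753094), was at 7.03, 7.20 and 7.06 in floxed controls, 7.37, 7.33 and 7.29 in Cre controls and 7.60, 7.44 and 7.58 in cKO. The 3 groups did not overlap, with the floxed control lowest and cKO highest. The log2 fold change was 0.44 ± 0.065 (SE) in cKO against the floxed control (limma adjusted p = 0.00113), and the call held in all 16 alternatives that gave a value. Over the Cre control it was 0.21 ± 0.065 (limma adjusted p = 0.0664), and for the Cre control against the floxed control 0.23 ± 0.065 (limma adjusted p = 0.167).

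The ubiquitous form Cox6b1 (ENSMUSG00000036751, chr7:30616861-30626151) was at 11.78, 11.72 and 11.78 in floxed controls, 11.84, 11.78 and 11.76 in Cre controls and 11.79, 11.81 and 11.82 in cKO. Its log2 fold change against the floxed control was 0.048 ± 0.037 (SE, limma adjusted p = 0.329). Per kilobase, Cox6b1 exceeded Cox6b2 by 4.25 ± 0.12 in floxed controls, 4.05 ± 0.0089 in Cre controls and 3.85 ± 0.090 in cKO (log2 difference, mean ± SD, n = 3). The common form therefore stayed well above the minor form in every group.

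The other isoforms of complex IV were not called with all 9 libraries. Per kilobase, Cox4i1 exceeded Cox4i2, the form known to answer to low oxygen, by 7.94 to 8.03 in the 3 group means (log2 difference), and Cox4i2 had a log2 fold change of 0.14 (limma adjusted p = 0.0747) over the floxed control. The muscle isoforms Cox6a2, Cox7a1 and Cox8b and the forms Cox7b2 and Cox8c were under the filter, with Cox7a1 nearest to it at 4.27, 4.26 and 4.26 in the 3 groups. Of the common forms, Cox4i1 had 0.084, Cox6a1 0.085, Cox7a2 -0.00079, Cox7b 0.0090 and Cox8a 0.12 in cKO against the floxed control, and none was called (limma adjusted p from 0.0565 to 0.994). Cox7a2l, a relative of Cox7a2, had 0.13 (limma adjusted p = 0.0697). When Cre control replicate 1 was left out, Cox4i1, Cox6a1, Cox8a, Cox5b and Cox7a2l were called over the floxed control (limma adjusted p = 0.0334, 0.0290, 0.0235, 0.0319 and 0.0201). With only the 6 libraries compared, Cox6a1, Cox8a, Cox5b and Cox7a2l were (limma adjusted p = 0.0443, 0.0339, 0.0494 and 0.0295). With the length and GC correction none of Cox4i1, Cox6a1, Cox8a and Cox7a2l was called, and their log2 fold changes were -0.011, -0.0053, 0.023 and 0.044.

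In complex V all 17 genes had a fold change above 0 in cKO against the floxed control, between 0.027 and 0.19 with a median of 0.076, and 1 was called. Over the Cre control 12 lay above 0 and 5 below, between -0.046 and 0.16 with a median of 0.040, and 1 was called. Without Cre control replicate 1 the counts called were 7 and 3. Atp5d, the delta subunit of the central stalk (ENSMUSG00000003072, chr10:80138632-80145818), was at 11.53, 11.56 and 11.58 in floxed controls, 11.59, 11.58 and 11.61 in Cre controls and 11.78, 11.70 and 11.76 in cKO. All cKO libraries lay above all controls, and Cre control replicate 1 did not stand apart at this gene. The log2 fold change was 0.19 ± 0.036 (SE) against the floxed control (limma adjusted p = 0.00328) and 0.15 ± 0.036 against the Cre control (limma adjusted p = 0.0315). The first call held in all 17 alternatives. The second was lost in 7, with adjusted p up to 0.125 (without cKO replicate 1). Among them were the length and GC correction and the fit of only the 6 libraries compared. The others left out floxed control replicate 3, Cre control replicate 2 or 3, or cKO replicate 3.

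Atp5a1 and Atp5b, which form the head of the enzyme, had 0.064 and 0.072 against the floxed control. Over the Cre control they had 0.12 and 0.071 (limma adjusted p = 0.0731 and 0.302). Neither was called with all 9 libraries. Without Cre control replicate 1, Atp5a1 was called over the Cre control (limma adjusted p = 0.0475). The c-ring, the rotor through which protons pass, is built from 1 protein encoded by Atp5g1, Atp5g2 and Atp5g3. Per kilobase, Atp5g3 was the highest, above Atp5g1 by 1.12, 1.17 and 1.15 and above Atp5g2 by 3.47, 3.50 and 3.41 in the floxed control, the Cre control and cKO (log2 difference). The order was the same in each group and the SD of these differences was at most 0.18. Their log2 fold changes against the floxed control were 0.076, 0.17 and 0.11 (limma adjusted p = 0.150, 0.176 and 0.0572). Atp5g3 was called there without Cre control replicate 1 and with only the 6 libraries compared (limma adjusted p = 0.0152 and 0.0213). With the length and GC correction its log2 fold change was 0.0020 (limma adjusted p = 0.969). The 4 peripheral stalk genes had a median of 0.062 and the 5 other membrane subunits 0.061.

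**Figure D4:**
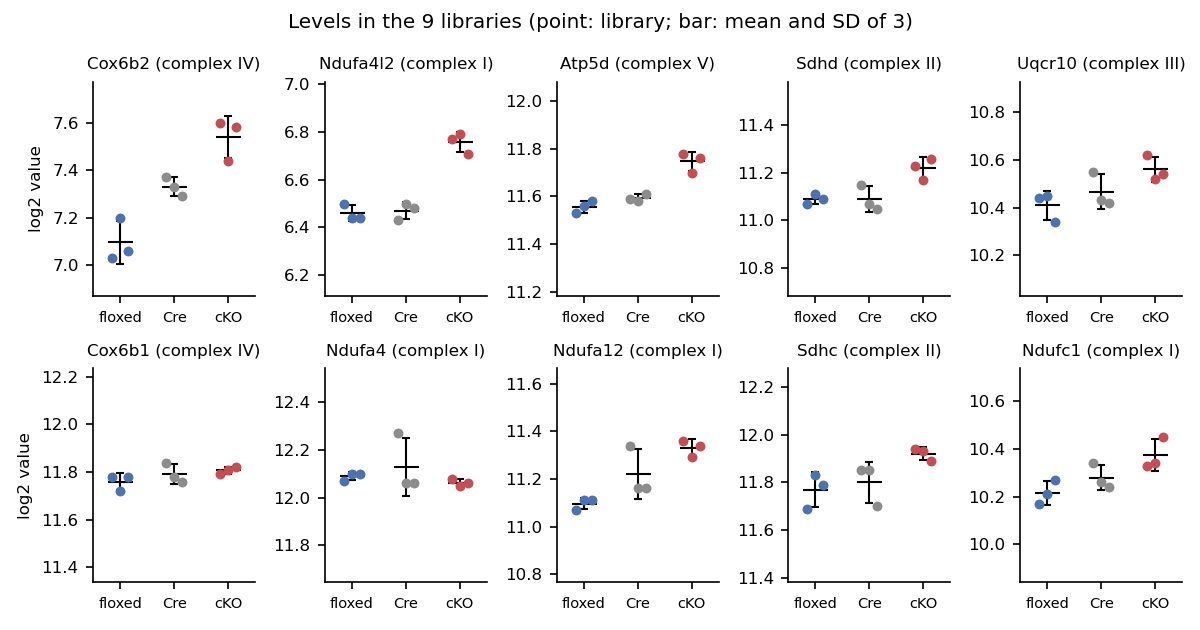
Log2 values of 10 oxidative phosphorylation genes in the 9 libraries, with 1 point for a library, a bar for the mean and SD of 3, and a vertical axis of the same span in each panel. Cox6b2 has group means of 7.10, 7.33 and 7.54 while Cox6b1 lies between 11.72 and 11.84, and the high Cre control point of Ndufa4 and of Ndufa12 is replicate 1.

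Other lists of mitochondrial and metabolic genes were described in the same way. Of all genes tested, 19.5% were called higher and 18.8% lower in cKO than in floxed controls. Against the Cre control these shares were 4.86% and 4.85%. Of 45 assembly factors of the 5 complexes, 3 were called higher and 1 lower in cKO than in floxed controls. By sign, 33 lay above 0 and 12 below, with a median of 0.050. Against the Cre control 0 were called. The copper chaperone Cox17 had 0.17 (limma adjusted p = 0.0260), and Ttc19, which acts on complex III, fell by 0.17 (limma adjusted p = 0.0388). Of 7 related subunits with names outside the rule 1 was called, Higd1a, a small inner membrane protein, with 0.26 (limma adjusted p = 0.00372). Of 16 enzymes of the tricarboxylic acid cycle 4 were called higher and 0 lower than in floxed controls. By sign, 11 lay above 0 and 5 below, with a median of 0.054. Suclg2, a subunit of succinyl-CoA ligase, had 0.42 (limma adjusted p = 0.000588), and Fh1, fumarate hydratase, 0.27 (limma adjusted p = 0.00242). Against Cre controls 3 of the 16 were called higher and 0 lower, with 14 above 0 and 2 below.

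Of 20 genes of mitochondrial biogenesis and genome expression, 3 were called higher and 1 lower in cKO than in floxed controls. By sign, 14 of the 20 lay above 0 and 6 below. In that comparison 19.5% of all genes tested were called higher and 18.8% lower. Of the 20, those called higher included the transcription factor Nrf1 (0.27, limma adjusted p = 0.00335). The 1 called lower was Ppargc1a, a coactivator that promotes mitochondrial biogenesis, which fell by 0.49 (limma adjusted p = 0.00556). In the comparison with Cre controls 0 of the 20 were called by limma (3 at an unadjusted p under 0.05), with 0.16 for Nrf1 and -0.17 for Ppargc1a (limma adjusted p = 0.0730 and 0.289). Of 29 genes of import and inner membrane structure 12 were called higher and 0 lower than in floxed controls, with a median of 0.11. Among the 12 were the prohibitin Phb2 (0.22, limma adjusted p = 0.00116) and the ADP/ATP carrier Slc25a5 (0.29, limma adjusted p = 0.00217). Of 78 mitochondrial ribosomal protein genes 34 were called higher and 0 lower in the same comparison, with a median of 0.13. Of 77 cytosolic ones 71 were called higher and 0 lower, with a median of 0.27. The counts called higher than in Cre controls were 3 of 29, 4 of 78 and 7 of 77, with 4.86% of all genes called. The medians were 0.085, 0.073 and 0.13. The oxidative phosphorylation genes thus had a smaller median than either ribosomal list, in both comparisons. The difference between the lists was not tested.

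Of 16 glycolytic enzymes 10 were called higher and 3 lower in cKO than in floxed controls, with a median of 0.35. Against the Cre control 9 were called higher and 1 lower. Of all genes tested, 19.5% and 18.8% were called higher and lower in the first comparison. In the second these shares were 4.86% and 4.85%. Ldha, which turns pyruvate into lactate, rose by 0.88 (limma adjusted p = 3.17e-05) against the floxed control and by 0.65 (limma adjusted p = 0.000452) against the Cre control. Pgam1, a mutase of lower glycolysis, rose by 0.46 (limma adjusted p = 0.000156) and 0.37 (limma adjusted p = 0.00134). In Cre control replicate 1 the median of the glycolytic list was -0.12 from the floxed control mean, where that of the oxidative phosphorylation genes was 0.14. In the same library the median was 0.14 for the mitochondrial ribosomal proteins and 0.32 for the cytosolic ones. In the 3 cKO libraries the glycolytic median was 0.33 to 0.39.

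**Figure D5:**
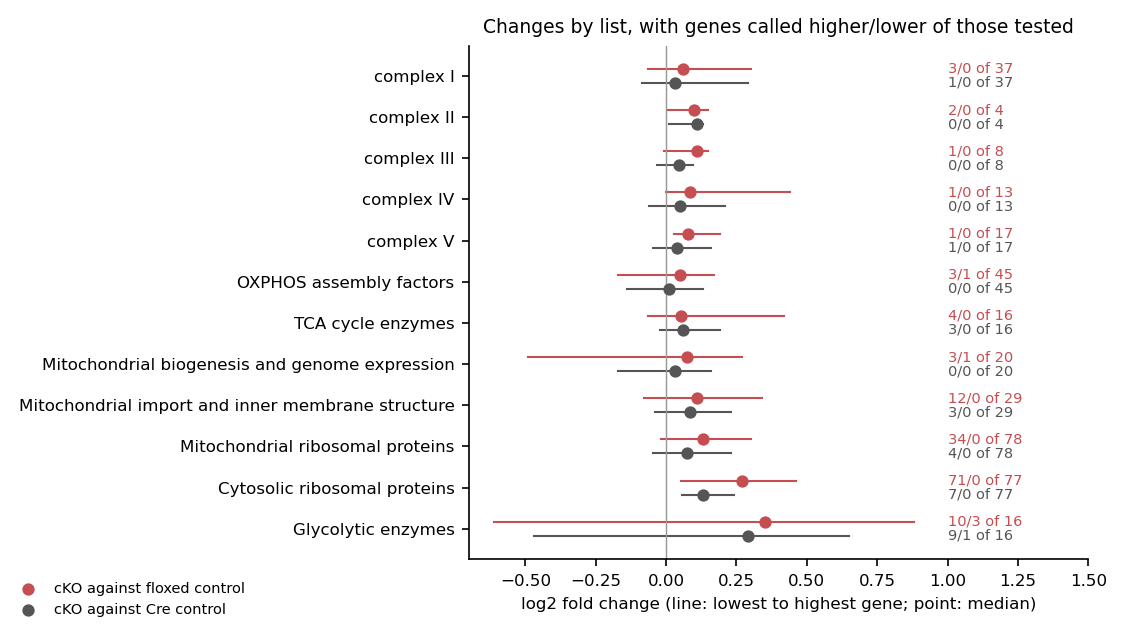
Log2 fold changes in cKO against the floxed control (red) and the Cre control (grey) for complexes I to V and 7 related lists, with a point for the median, a line from the lowest to the highest gene and the numbers called higher and lower of those tested. The complexes have medians of 0.060 to 0.11 in red, under the cytosolic ribosomal proteins at 0.27 and the glycolytic enzymes at 0.35.

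Markers of cell types also differed between the genotypes. Beside the counts below, 19.5% of all genes tested were called higher and 18.8% lower in cKO than in floxed controls. Against the Cre control the shares were 4.86% and 4.85%. All 8 neuronal markers were called lower in cKO than in floxed controls. Against the Cre control all 8 lay below 0, 7 of them at an unadjusted p under 0.05, and limma called 3 of them. Their summed level was 16.92 to 17.03 in floxed controls, 16.60 to 16.91 in Cre controls and 16.42 to 16.59 in cKO (log2). Of 7 neural progenitor markers 6 lay above the floxed control and 4 were called higher. Their summed levels were 16.25 to 16.32, 16.25 to 16.38 and 16.46 to 16.53 in the same order. All 9 erythroid markers lay above the floxed control and 6 were called higher, with 17.22 to 17.98, 17.48 to 17.69 and 17.86 to 18.81. All 8 mesenchymal and meningeal markers lay above it and 7 were called higher, with 14.85 to 15.70, 15.18 to 15.91 and 15.94 to 16.00. All 7 endothelial markers lay above the floxed control and 4 were called higher, with 12.45 to 12.82, 12.56 to 12.92 and 12.85 to 12.96. None of 7 markers of microglia and macrophages was called (limma, 3 of them at an unadjusted p under 0.05), with 11.09 to 11.31, 11.26 to 11.33 and 11.30 to 11.43. Of the 6 midbrain markers 2 were called lower than in floxed controls, with 3 above 0 and 3 below. Compared with Cre controls 3 progenitor and 4 erythroid markers were called higher, with 6 of 7 and all 9 above 0. Against that group limma called no mesenchymal, endothelial, microglial or midbrain marker (2, 1, 0 and 3 of them at an unadjusted p under 0.05). The Cre control lay above the floxed control by a median of 0.33 over the mesenchymal markers and 0.16 over the endothelial ones. Over the 8 neuronal markers the median of that comparison was -0.21, with 0 called by limma and 7 at an unadjusted p under 0.05. In Cre control replicate 1 the neuronal median was -0.38 from the floxed control mean, and in replicates 2 and 3 it was -0.17 and -0.10. No marker of these lists was at 0 in every library, and the part of these cells in the values of the oxidative phosphorylation genes was not tested.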

How the data were processed

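The authors deposited log2 expression values for 27360 rows and 9 libraries. The submitters' processing notes name kallisto 0.46.1, FastQC 0.10.1, DESeq2 and the mm10 build, and the transformation is not given in the sources used here. In limma 3.58.1 (R 4.3.3), 1 model with 3 genotype means covered the 9 libraries (eBayes with a trend, two-sided moderated tests, Benjamini-Hochberg adjustment over 14029 genes), and a call was an adjusted p under 0.05. The fit was tested on simulated data. Members and lists were chosen with earlier results of these data known. Lengths and positions are from GENCODE M21 (GRCm38), with the shortest of the best supported principal transcripts of a gene, for 83 of the 85 members. Levels per kilobase are log2 values minus log2 of that length in kilobases. Named were, in each comparison and complex, the 2 called members with the smallest p, members called against the majority or with a fold change over 1.5, alternative isoforms, the 4 complex II genes and, in each list of mitochondrial or glycolytic genes, the 2 called genes with the smallest p. The same rule over the marker and ribosomal lists was not written out here. Other members are named as examples chosen after their values were seen. Alternatives changed the filter, the libraries fitted, the trend, the centring, the normalization, the threshold, a replicate block, length and GC content, and left out each library in turn.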

Additional observations from a re-analysis of the deposited data

How the results depend on the processing

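The replicate numbers were not taken as pairs, since no label ties equal numbers. Of the 9 pairs of equal number 5 correlated by over 0.1, which does not decide whether equal numbers belong together. Deviations from the genotype means correlated over genes by -0.027 to 0.26 for equal numbers and by -0.28 to 0.16 for unequal ones. With the replicate block 10 members (12.7%, and 20.7% of all genes) were called higher in cKO against the floxed control in place of 8, and 2 against the Cre control as without it. For members called higher against the floxed control, the count was 27 with only the 6 libraries compared (22.8% of all genes), 4 with libraries centred on their medians (2380 of 14029 genes), 5 with the length and GC correction, 0 with an added fold change over 1.5 (1.34% of all genes) and 24, or 30.4%, at an unadjusted p (25.0% of all genes). Leaving out 1 library gave 4 to 33, the highest without Cre control replicate 1. The count lower went from 0 to 3 with the length and GC correction, and the median from 0.072 to -0.011. Against the Cre control, the count higher went from 2 to 1 with at least 10 cpm in 3 libraries, with only the 6 libraries compared or with the length and GC correction (5.82%, 1.60% and 5.66% of all genes), to 0 with an added fold change over 1.5 (0.335%) and to 9, or 11.4%, at an unadjusted p (15.4%), and leaving out 1 library gave 0 to 15. For the Cre control against the floxed control, 5 members were higher and 1 lower at an unadjusted p in place of 0. The medians with 1 library left out were 0.063 to 0.082 against the floxed control, 0.0096 to 0.073 against the Cre control and -0.00020 to 0.066 for the Cre control against the floxed control. Of 1113 repeats of the fold changes of named members, 1056 kept their side of the threshold, of which 70 had the other sign with no call in either fit, 40 lost a call, 17 gained one and 0 reversed with a call. Apart from the library left out, the cause of these shifts was not tested. Depth is unknown, so no counting error can be given.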
